A study of Mus musculus with 14 samples.

Results

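The distal H3K4me1 sites within repeat sequence were the members of the deposited H3K4me1 peak set whose centre lay over 3 kb from every transcription start site (TSS) and in which at least 80% of the bases were masked as repeats. Of 160144 sites, 160108 lay on chromosomes 1 to 19 and X, 115800 of these were distal, and 2189 were distal repeat sites. They made up 1.89% of the distal sites (95% Wilson interval 1.81 to 1.97%) and 0.840% of the bases that the distal sites covered. Intervals of this kind cover the counting of sites alone and treat neighbouring sites as independent. The 79038 distal sites with under 20% masked bases, here called low-repeat sites, served for comparison.

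The sites came from ChIP-seq of H3K4me1 in NG3 cells, a single clone of immortalized mouse embryo fibroblasts (iMEF). They were derived from a line with floxed Ash2l alleles and Cre-ER, a recombinase that can be switched on. Exon 4 of endogenous Ash2l had been excised in the clone, and human ASH2L fused to FKBP12-F36V was supplied by a lentiviral construct, so that the compound dTAG-13 directs its degradation. Cells without dTAG-13 and cells treated with it for 30 min, 2, 4, 8 or 16 h were each measured in 2 replicates, with an input library for the control and for 16 h, which gives 12 H3K4me1 libraries and 2 inputs. The table lists only positions, in a single set over all samples. A time point, a replicate or a signal cannot be read from it, so that all values below describe where the mark was called in these cells and not how it changed. The depth of the libraries is likewise not in the table.

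H3K4me1 is a histone mark that the KMT2 methyltransferases, with ASH2L as a core subunit, place at enhancers and around active promoters. A large part of the mouse genome derives from transposable elements, among them LINEs such as L1, SINEs such as B1, and LTR elements, which copied themselves into new positions and have since accumulated mutations. Old copies can be told apart by their sequence, whereas reads from young, near-identical copies cannot be assigned to a single position. Some copies carry words that transcription factors bind, and elements of this kind are known to act as enhancers in several mouse cell types.

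Repeat sequence was read as the soft-masked bases of the GRCm38.p6 reference, 34.3% of the sequenced bases of the chromosomes. This masking names no repeat family. The sequences of 4 repeat sites are given as examples, picked for particular traits and not typical of the class. In the class, 17.04% of sites were fully masked and the median width was 325 bp. These 4 were taken by rule from 214 fully masked repeat sites of 200 to 300 bp that touch no annotated exon. All are given 5′ to 3′ on the plus strand. The first is the single one of them with an AP-1 word in its centre, TGACTCA or TGAGTCA, in which every 75-base word also occurs only once in the genome. AP-1 is the Fos and Jun family of transcription factors. This site lay at chr12:38262707-38262942 in an intron of Dgkb, a diacylglycerol kinase gene. Capitals mark the AP-1 word.
Dgkb site with AP-1 word: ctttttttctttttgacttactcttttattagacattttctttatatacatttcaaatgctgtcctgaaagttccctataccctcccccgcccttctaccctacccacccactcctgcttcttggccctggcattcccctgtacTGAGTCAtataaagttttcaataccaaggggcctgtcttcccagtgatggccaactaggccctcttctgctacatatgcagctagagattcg
Of the 214 sites, the second had the largest share of bases in tandem repeats of 1 to 6 bases, 37.4%. It lay between genes at chr11:68608199-68608436, 14.3 kb from the TSS of Ccdc42, and is shown for its purine-rich run.
Tandem site near Ccdc42: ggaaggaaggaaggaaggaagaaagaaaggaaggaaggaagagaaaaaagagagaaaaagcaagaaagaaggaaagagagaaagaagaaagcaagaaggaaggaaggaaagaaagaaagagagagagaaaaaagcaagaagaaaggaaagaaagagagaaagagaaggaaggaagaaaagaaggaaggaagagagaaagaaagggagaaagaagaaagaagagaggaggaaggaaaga
Of the 214 sites, the third had the most copied sequence, though among all repeat sites the median count of 24-base words reached 28932. The 24-base words that it holds occurred a median of 22836 times in the genome, and 23.6% of its 75-base words were single-copy. It lay between genes at chr15:48990747-48990947, 199 kb from the nearest TSS of Csmd3.
Most copied site, near Csmd3: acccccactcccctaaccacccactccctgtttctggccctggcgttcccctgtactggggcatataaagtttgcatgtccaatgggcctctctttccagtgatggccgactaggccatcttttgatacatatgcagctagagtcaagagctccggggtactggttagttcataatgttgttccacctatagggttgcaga
The fourth had a median copy number of 1 for its 24-base words, the lowest possible, although all of its bases were masked. This value was shared by 606 repeat sites. The fourth site is 1 of these. It lay in an intron of March4, a gene of a membrane-bound ubiquitin ligase, at chr1:72492030-72492239.
March4 site, single-copy: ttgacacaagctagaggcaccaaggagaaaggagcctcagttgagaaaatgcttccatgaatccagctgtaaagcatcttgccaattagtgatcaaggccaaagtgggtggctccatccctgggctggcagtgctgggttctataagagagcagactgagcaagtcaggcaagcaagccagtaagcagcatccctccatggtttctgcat

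The question asked first was how many repeat sites a random placement of the same peaks would give. In 1000 rounds, all sites were shuffled along the chromosome they came from, keeping their widths and avoiding gaps of the assembly. These placements gave a mean of 17594 distal repeat sites (range 17161 to 18029), 8.04 times the 2189 observed. The observed number was 0.124 of the placed mean. Among placed distal sites, 13.1% were repeat sites, against the 1.89% observed. Low-repeat sites went the other way, with 79038 observed and a placed mean of 54425, a ratio of 1.45.

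**Figure D1:**
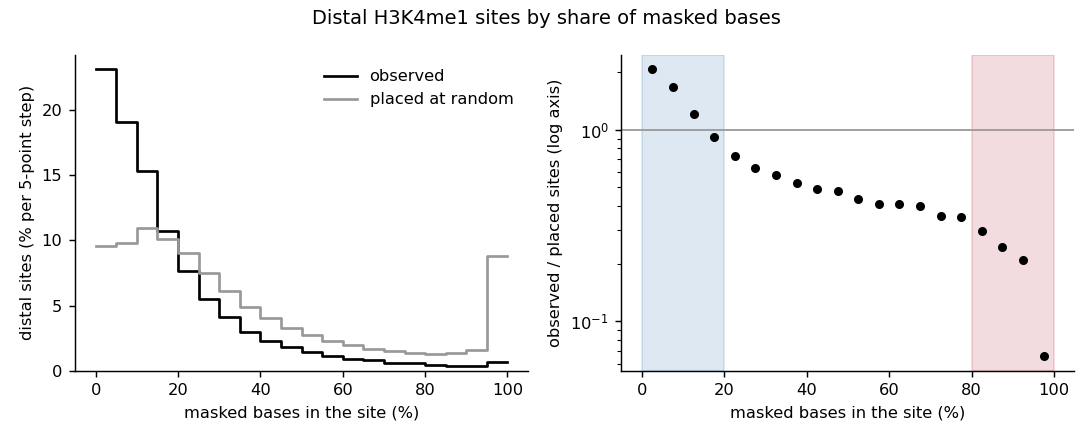
Left, share of distal sites (%, y axis) in 5-point steps of the percentage of masked bases (x axis), for observed sites (black) and for sites placed at random (grey, mean of 100 placements). Right, ratio of observed to placed sites on a log axis against the same percentage, with the repeat sites shaded red and the low-repeat sites blue. The ratio falls from 2.08 in sites with under 5% masked bases to 0.0656 in those with 95% or more.

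The ratio fell with every step in masking, and the last step was the steepest of those from 80% on. From 80 to under 85% masked bases, 523 sites were observed against a placed mean of 1764, a ratio of 0.297. From 95% on, 779 sites were observed against 11881, a ratio of 0.0656. Fully masked sites numbered 373, or 17.04% of the repeat sites, where 100 placements gave a mean of 8418. At the edge of the rule, 223 distal sites had 80 to under 82% masked bases and a median width of 334 bp, and 238 had 78 to under 80% and a median width of 366 bp. On the side of distance, 60 repeat sites lay at most 3500 bp from a TSS, and 64 sites as heavily masked lay over 2500 and up to 3000 bp from one.

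All 20 chromosomes had fewer repeat sites than the lowest of their 1000 placements. The ratio ranged from 0.0758 on chromosome 7, where 77 repeat sites stood against a placed mean of 1016, to 0.191 on chromosome 15, where 166 stood against 871. Chromosome 16 followed with 0.176. Across the autosomes, 1.32 to 2.60% of distal sites were repeat sites. On X, 72 of 1664 distal sites, 4.33%, were repeat sites, the highest share of any chromosome. The sequence of X was also the most heavily masked, at 46.8% against 30.6 to 35.8% on the autosomes. Set against its own placements, the ratio of X was 0.116, within the range of the autosomes.

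**Figure D2:**
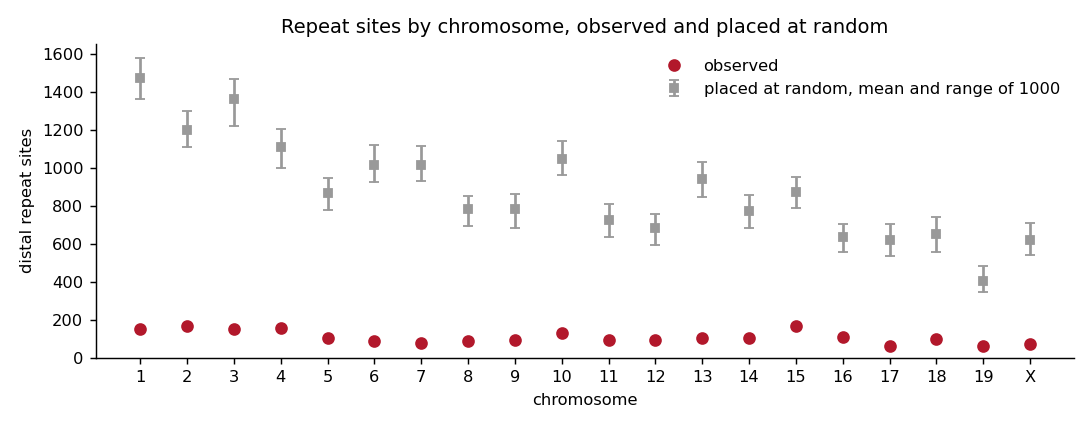
Number of distal repeat sites (y axis) on each chromosome (x axis), observed (red) and placed at random (grey squares, with bars for the lowest and highest of 1000 placements). Every red point lies below the grey range, from 61 sites on chromosome 17 to 168 on chromosome 2.

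Repeat sites were narrow. Their width had a lowest value of 200 bp, a median of 325 bp, quartiles of 239 and 442 bp and a highest value of 3407 bp. Low-repeat sites had a median of 549 bp with quartiles of 327 and 1002 bp, so that the median differed by -224 bp (repeat minus low-repeat). The median was lower for repeat sites on 20 of 20 chromosomes, with differences from -298 to -147.5 bp (two-sided exact sign test over chromosomes, p = 1.9e-06, Benjamini-Hochberg adjusted over 7 measures p = 4.5e-06). This p is the smallest that 20 chromosomes allow. Placed repeat sites had a median of 505 bp, 39.0 bp under that of placed low-repeat sites. The size of the difference depended on the range of widths. Among sites under 500 bp it was -23 bp, with the same call.

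The shortfall against placement grew with width. Among sites of 200 to 299 bp, 962 repeat sites stood against a placed mean of 4252, a ratio of 0.226. From 300 to 499 bp there were 818 against 4449, and from 500 to 999 bp 388 against 5038. Wider repeat sites were rare. From 1000 to 1999 bp there were 20 against 2821, a ratio of 0.00709, and from 2000 bp on there was 1 against 1034. By contrast, 25.1% of low-repeat sites were at least 1000 bp wide.

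**Figure D3:**
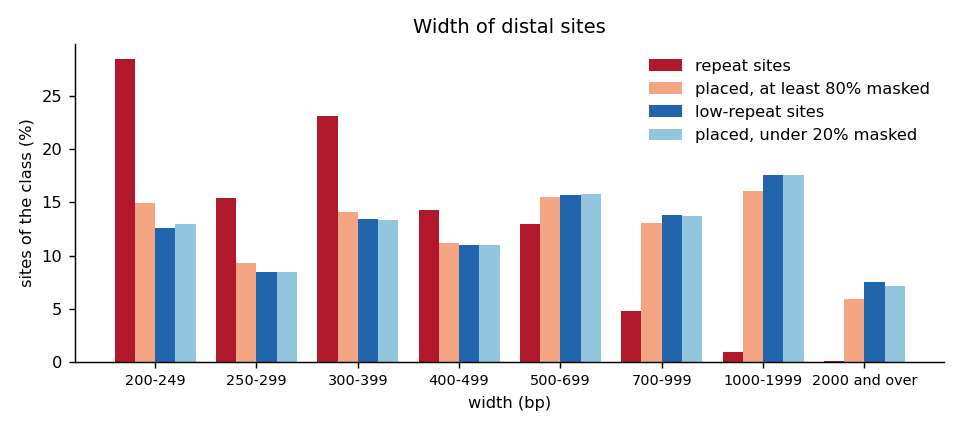
Share of sites in each class (%, y axis) by width in bp (x axis) for repeat sites (red), placed sites with at least 80% masked bases (orange), low-repeat sites (blue) and placed sites with under 20% (light blue). Repeat sites lie at lower widths (median 325 bp), while placed repeat sites (505 bp) lie close to low-repeat sites (549 bp).

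The widest repeat site, 3407 bp at chr1:45356772-45360178, lay between Col3a1 and Col5a2, which encode chains of the fibrillar collagens III and V. Its bases were 82.01% masked, in 29 separate runs, and every 75-base word in it was single-copy. The next in width lay in an intron of Dlg1, a scaffold protein gene (1706 bp), between genes near Far1, a fatty acyl-CoA reductase gene (1640 bp), in an intron of Ostf1 (1482 bp) and near Erlin2, a gene of the endoplasmic reticulum (1413 bp). The site near Far1 stood apart from the others in that 58.0% of its 75-base words were single-copy, against 81.7 to 100% in the other 4.

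The masked bases of a repeat site were often broken up. A single masked run was found in 633 repeat sites (28.9%), while 598 had 2 runs and 958 had 3 or more. The number of runs had a median of 2 and a mean of 2.62, and in placed repeat sites of 1 and 2.47. The longest run had a median of 209 bp, against 374 bp in placed repeat sites. A run cannot be longer than its site, and the median width was 325 bp against 505 bp in placed repeat sites. The sequence around repeat sites was less masked than around placed windows. In the 1 kb on either side, a median of 37.0% of the bases was masked for repeat sites, 84.95% for placed repeat sites and 20.9% for low-repeat sites. When the flanks were under 50% masked, 1497 repeat sites stood against a placed mean of 2458, a ratio of 0.609. With flanks of at least 50% the numbers were 692 and 15118, a ratio of 0.0458.

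Reads of 75 bases, the length sequenced here, can be placed uniquely only where a 75-base word occurs once. The masking used by the rule and copy number go together, so that the value of the placed windows belongs beside each of the following. In repeat sites, 95.3% of the 75-base words were single-copy on average, in low-repeat sites 99.9%, and in placed repeat sites 58.2%. The difference between the classes was -4.58 percentage points, and between placed windows -40.6 points. It comes with the masking that defines the classes and is given without a test. Every word was single-copy in 1409 repeat sites (64.4%, 95% Wilson interval 62.3 to 66.4%), and 21 had under 50% of such words. No repeat site was without a single-copy word, which allows a share of up to 0.137% when a count of 0 is taken to allow 3 sites, whereas 14.9% of placed repeat sites were.

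The ratio to placement differed along the same measure. Repeat sites in which every 75-base word was single-copy numbered 1409 against a placed mean of 3478 (range 3360 to 3636), a ratio of 0.405. Below this the ratio was 0.166 for 90 to under 100% and 0.0732 for 50 to under 90%. Under 50%, 21 sites stood against a placed mean of 7078, a ratio of 0.00297.

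By 24-base words, 606 repeat sites (27.7%) had a median copy number of 1, like 99.7% of low-repeat sites. The median was over 1 and up to 10 in 847 (38.7%), over 10 and up to 100 in 484 (22.1%) and over 100 in 252 (11.5%). Among placed repeat sites, 53.8% were over 100. Copied sequence was thus present in most repeat sites, at a lower copy number than in placed ones. Tandem repeats were a small part, since 43 repeat sites (1.964%) had at least 20% of their bases in them, against 2.35% of placed repeat sites.

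Repeat sites had a mean GC content of 49.1%, low-repeat sites 48.3%, and the difference of 0.73 percentage points was positive on 18 of 20 chromosomes (exact sign test, adjusted p = 0.00056), with chromosomes 7 and 11 as the exceptions. Placed sites differed in the opposite direction and were poorer in GC, with 41.3% for repeat and 42.4% for low-repeat windows. CpG dinucleotides were sparse, at a median of 0.50 per 100 bp in repeat sites, 1.13 in low-repeat sites and 0.61 in placed repeat sites. None was found in 414 repeat sites (18.9%), against 2.78% of low-repeat sites and 11.4% of placed repeat sites. That share also depends on width, and repeat sites were narrower (median 325 bp, against 549 and 505 bp).

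The ratio to placement also differed by GC content, with a rise up to 50 to under 55% and a lower value above it. At 40 to under 45% GC, 226 repeat sites stood against a placed mean of 5054, and at 50 to under 55% GC, 809 stood against 932 (range 851 to 1001), a ratio of 0.868. Where every 75-base word was single-copy, the corresponding numbers were 141 against 718 at the lower and 575 against 257 (range 214 to 308) at the higher GC content, a ratio of 2.24. The same GC step was seen in low-repeat sites, with ratios of 0.814 and 3.61. Repeat sites of single-copy sequence at 50 to under 55% GC were thus more frequent than under placement, yet less so than low-repeat sites of the same GC content, and no test was made of that difference. From 45 to under 50% GC the ratio of repeat sites was 0.371, and 0.950 for single-copy ones. From 55% GC on, 89 repeat sites stood against 323 (ratio 0.276), and 67 single-copy ones against 56.9 (ratio 1.18). Under 40% GC, 26 repeat sites were observed against 8470 placed.

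**Figure D4:**
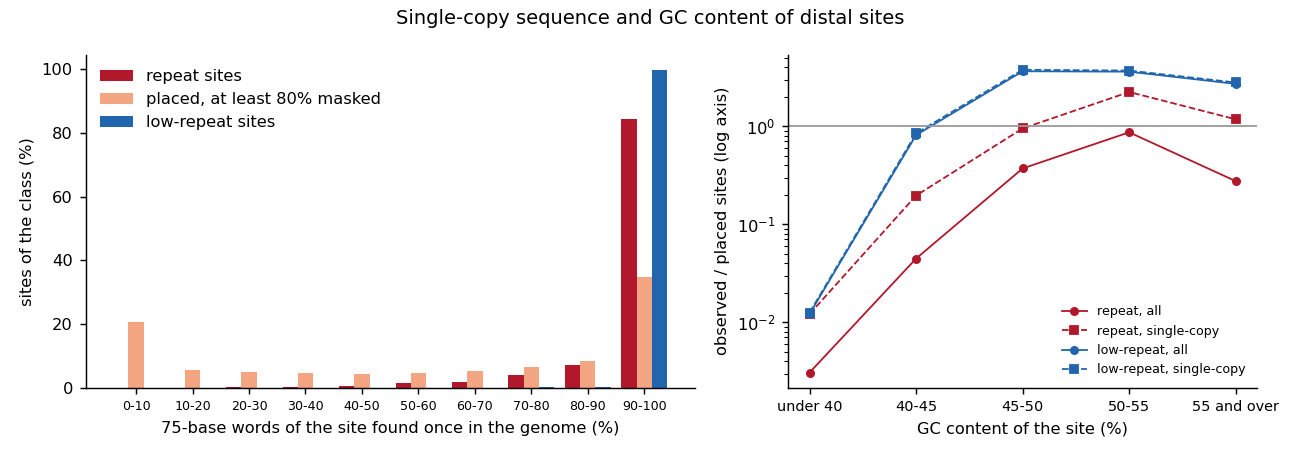
Left, share of sites in each class (%, y axis) by the percentage of their 75-base words found once in the genome (x axis), for repeat sites (red), placed repeat sites (orange) and low-repeat sites (blue); right, ratio of observed to placed sites on a log axis by GC content, for all sites (circles) and sites in which every 75-base word is single-copy (squares). At 50 to 55% GC the ratio reaches 2.24 for single-copy repeat sites and 3.70 for single-copy low-repeat sites.

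Repeat sites lay between genes more often than low-repeat sites. Of them, 1115 (50.9%, 95% Wilson interval 48.84 to 53.03%) had their centre outside all gene bodies, 1057 (48.3%) in introns and 17 (0.777%) in exons. Of low-repeat sites, 40.9% were intergenic. The difference of 10.1 percentage points was positive on 20 of 20 chromosomes, from 0.792 points on chromosome 1 to 19.8 on chromosome 8 (exact sign test, adjusted p = 4.5e-06). Masked sequence is itself more often intergenic, and placed windows differed by more, 72.8% against 48.3%. The test was made against no difference and not against the placed windows. Against placement, intronic repeat sites were at a ratio of 0.224 and intergenic ones at 0.0872.

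The centre of a repeat site lay a median of 21118 bp from the nearest TSS, with quartiles of 8941 and 50745 bp, and that of a low-repeat site 17008 bp. The distance was larger for repeat sites on 17 of 20 chromosomes (exact sign test, adjusted p = 0.003) and smaller on chromosomes 9, 11 and 13. Placed windows of the classes differed by 4171 bp, beside 4110 bp observed. The test was made against no difference, so it does not set repeat sites apart from masked sequence placed at random. With TSSs of protein-coding transcripts alone the observed difference was 11960 bp. Over 100 kb from any TSS lay 228 repeat sites (10.4%), against 5.17% of low-repeat sites and 13.7% of placed repeat sites.

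**Figure D5:**
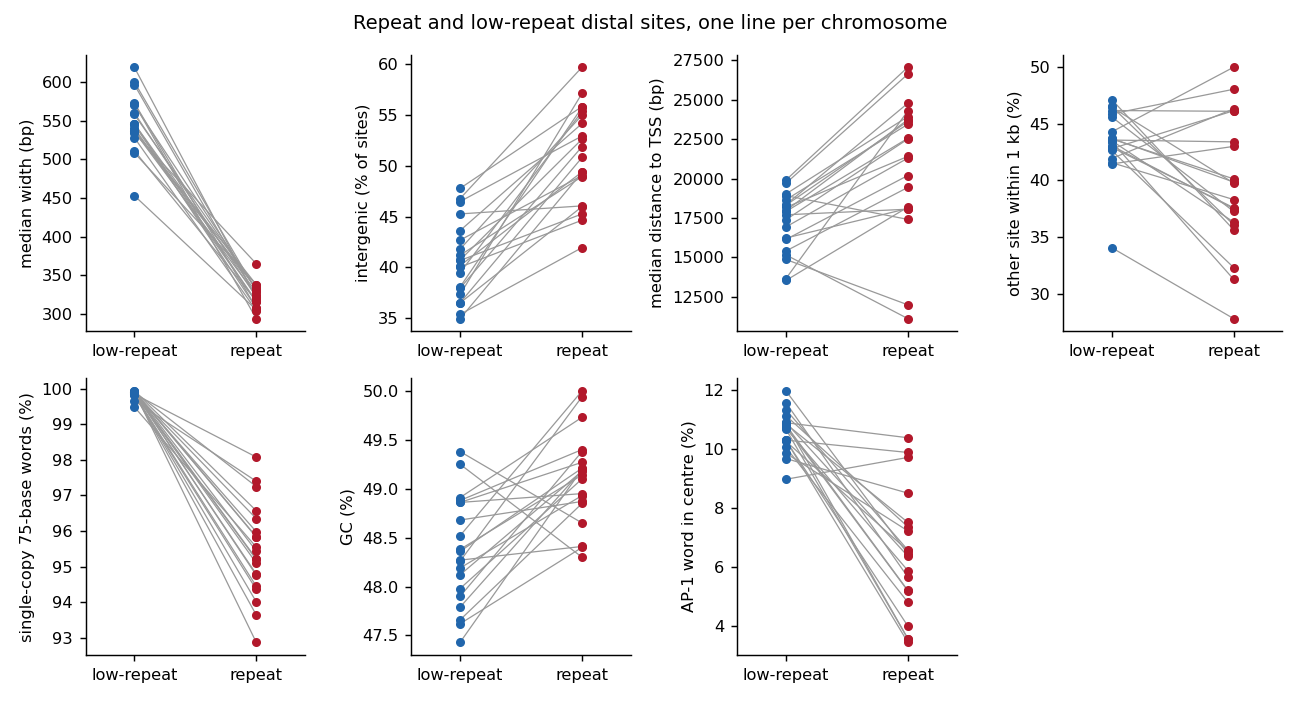
Values of low-repeat (blue) and repeat sites (red) on each of 20 chromosomes, joined by a line, for width (bp), intergenic share (%), distance to the nearest TSS (bp), share with another site within 1 kb (%), share of single-copy 75-base words (%), GC content (%) and share with an AP-1 word in the central 200 bp (%). The axes do not start at 0. Width, intergenic share and single-copy words differ the same way on all chromosomes, whereas 5 chromosomes go against the rest for neighbouring sites.

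Another H3K4me1 site lay within 1 kb of 866 repeat sites (39.6%) and of 43.9% of low-repeat sites. The share was lower for repeat sites on 15 of 20 chromosomes (exact sign test, adjusted p = 0.041). This call did not hold among sites under 500 bp, where the difference was -0.65 percentage points (exact sign test, p = 1). Placed repeat sites had a neighbour in 20.9% of cases. For 454 of the 866 repeat sites (52.4%) the nearest site was a low-repeat site, for 348 (40.2%) one with masking in between, for 24 (2.77%) one within 3 kb of a TSS and for 40 (4.62%) another repeat site. Among low-repeat sites with a neighbour, the nearest was a repeat site in 1.27%.

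Repeat sites were few, and most lay far from each other. The spacing of placed repeat sites is not given here, so these values are not set against what the small number alone gives. The gap between a repeat site and the nearest other one had a median of 255.5 kb, and 190 (8.68%) had another within 10 kb. When repeat sites with gaps of up to 10 kb were joined, 1999 remained alone, 83 groups had 2 members and 8 had 3, the largest number found. One of the 8 spanned 7573 bp from chr1:45353570 to chr1:45361142 beyond the 3′ end of Col3a1 and held the widest repeat site, without any other distal site between its members. Of the other groups of 3, 4 lay near Ptprq, Ell2, Pde4d and Thrb, with 1 to 4 low-repeat sites within the span, and these genes, apart from Pde4d, were named after their values were seen.

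Words of transcription factors were counted on both strands in the central 200 bp. The AP-1 word was found in 136 repeat sites (6.21%, 95% Wilson interval 5.28 to 7.30%) and in 10.7% of low-repeat sites. It was less frequent in repeat sites on 19 of 20 chromosomes, with X as the exception (exact sign test, adjusted p = 7e-05). The size differed by width. The shares were 5.51 and 10.25% at 200 to 299 bp and 5.50 and 11.55% at 300 to 499 bp. At 500 to 999 bp they were 9.79% of 388 repeat sites and 11.22% of low-repeat sites. None of the 21 wider repeat sites held the word. In placed windows the word was rarer still, at 0.777% in masked and 3.81% in low-repeat windows. In number, the 136 repeat sites with the word stood against a placed mean of 136.6 (range 103 to 168), a ratio of 0.996, where all repeat sites together were at 0.124. Where every 75-base word was also single-copy, 93 stood against 47.8 (range 31 to 63), a ratio of 1.95.

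The other words did not reach such a ratio. The TEAD word, GGAATG or CATTCC, was in 377 repeat sites (17.2%) against a placed mean of 1776, the RUNX word, TGTGGTT or AACCACA, in 171 (7.81%) against 949, and the E-box CACGTG in 44 (2.01%) against 286.5, with ratios from 0.154 to 0.212. The TEAD word was in 15.9% of low-repeat sites, the RUNX word in 6.01% and the E-box in 3.07%. In placed repeat sites their shares were 10.1%, 5.401% and 1.63%, each under that of the observed repeat sites. The CRE word, TGACGTCA, and the C/EBP word, TTGCGCAA, were in none of the repeat sites, which by the same limit of 3 sites allows a share of up to 0.137%, against placed means of 19.9 and 1.18. TEAD, RUNX and C/EBP are families of transcription factors, the CRE is bound by CREB and ATF factors, and the E-box by basic helix-loop-helix factors. A word is a match of letters, and binding was not measured here.

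The surroundings of the AP-1 words were in part shared between repeat sites. Among the 136 sites, 102 different surroundings of 6 bases on either side were found, 91 of them once. The 3 most frequent and 1 of those found in 4 sites are shown, with the AP-1 word in capitals.
in 10 sites: gggataTGAGTCAtcccca
in 7 sites: tctgtcTGAGTCAgctgct
in 6 sites: ttatagTGAGTCAggcaca
in 4 sites: ctgtacTGAGTCAtataaa
The first made up 7.35% of the repeat sites with an AP-1 word but 0.867% of the placed windows with one (10 placements). The last is the surrounding found in the Dgkb site printed above. These surroundings were picked after they were seen and carry no test. In 59 of the 136 sites the median copy number of 24-base words was 1.

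Sequence that many repeat sites share was sought as 24-base words. The 5 words found in the most repeat sites, with tandem words and words overlapping an earlier one by 12 bases left out, were the following, in the order of the number of sites that hold them.
word in 124 sites: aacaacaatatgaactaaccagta
word in 75 sites: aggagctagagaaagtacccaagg
word in 65 sites: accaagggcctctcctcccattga
word in 61 sites: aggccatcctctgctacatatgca
word in 60 sites: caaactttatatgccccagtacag
They occur between 5631 and 42001 times in the genome. At least 1 of them was in 301 repeat sites (13.8%), at least 2 in 75 (3.43%), against 9.26% and 2.10% of placed repeat sites, and 23 of the 79038 low-repeat sites held any. The words were picked for their number in the observed repeat sites, which favours a higher share there, so these shares carry no test. Low-repeat sites hold little masked sequence by definition. In number, each word was in fewer repeat sites than its placed mean (10 placements), the first in 124 against 474. The 301 sites were spread over all 20 chromosomes, with 3 to 34 on each.

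Some of these words belong to 1 unit. On the printed site near Csmd3, the fifth word matched without a difference on the reverse strand at bases 51 to 74, the fourth with 3 differing bases at 113 to 136, and the first with 1 differing base on the reverse strand at 159 to 182. On the Dgkb site the fifth word matched with 3 differing bases at 139 to 162, and this stretch takes in its AP-1 word. Of the other repeat sites, 379 (17.3%) shared at least a 16-base word with the Csmd3 site, as did 13.7% of placed repeat sites and 0.0557% of low-repeat sites. In number these 379 stood against a placed mean of 2401, a ratio of 0.158. The words had unequal shares against placement. The third was in 2.97% of repeat sites and 0.379% of placed ones, while the fifth was in 2.74% and 4.04%. In number the third stood at 65 against a placed mean of 66.6, and the fifth at 60 against 710.2.

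The reference annotation names a few transposable elements by family, and the share of sites with a 16-base word of each was counted in 10 placements. Words of the B1 element annotated as B1_Mus2 at chr7:103823699-103823836 were in 220 repeat sites (10.1%), in 3.49% of placed repeat sites and in 2.05% of low-repeat sites. In number, these 220 stood against a placed mean of 613, a ratio of 0.359. B1 is a SINE derived from 7SL RNA. Words of Rn4.5s, a small RNA gene related to B1, were in 78 (3.56%), 1.27% and 0.862%, with 78 observed against a placed mean of 223, a ratio of 0.350. Words of the LTR annotated as LTRIS4 at chr17:34825295-34825783 were in 23 repeat sites (1.05%) and 0.143% of placed ones, so that 23 observed stood against a placed mean of 25.2. Words of 7SL RNA itself, Rn7s1, were in 2 repeat sites, and those of AmnSINE1 and of the internal part MuRRS4-int in none. These elements are single annotated copies, and a shared word does not assign a site to a family.

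The nearest protein-coding TSS of a repeat site belonged to 1611 different genes, 7.41% of 21728. Of these genes, 1249 had 1 repeat site, 243 had 2 and 119 had 3 or more. Low-repeat sites were nearest to 10864 genes. Of the 1611 genes, 1459 (90.6%) also had a low-repeat site, against 50% of all protein-coding genes. These 1459 are 13.4% of the genes with low-repeat sites. Genes were not matched for their number of distal sites, so nothing further is read from this overlap. Repeat sites made up a median of 9.09% of the distal sites of a gene that had any.

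The 10 genes with the most repeat sites had from 6 to 9 each. Cdh18, a cadherin gene, had 9 of its 63 distal sites in repeats, at 40.3 to 462 kb from its nearest TSS, and 7 of these lay inside its gene body. Pde4d, which encodes a cAMP phosphodiesterase, also had 9, but of 219 distal sites. Mgat4c had 8 of 24 and Pcdh20, a protocadherin gene, 7 of 20, with no low-repeat site nearest to the latter. Cdh11, the cadherin of mesenchymal cells, had 7 of 57. Csmd3 (6 of 47), Epha7, an ephrin receptor gene (6 of 37), and Flrt2 (6 of 66) followed, beside the collagen genes Col3a1 (6 of 24) and Col5a2 (6 of 39). Being nearest by TSS did not mean being close. None of the repeat sites of Pcdh20, Cdh11 and Epha7 lay in a coding gene body. Their distances were 150 to 1645, 32.6 to 914 and 430 to 1152 kb, and those of Flrt2 reached 1157 kb. By contrast, all 9 of Pde4d lay in coding gene bodies, at 15.9 to 81.6 kb.

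The neighbouring Col3a1 and Col5a2 together had 12 repeat sites among 63 distal sites, over 567 kb. These 12 were not alike. Every 75-base word was single-copy in 7 of them, and the median copy number of 24-base words was 1 in 3. Inside Col5a2, the sites at chr1:45445864-45446087 and chr1:45468822-45469190 were fully masked, with 50% and 74.6% single-copy words and median copy numbers of 276 and 280. Upstream of Col5a2, the site at chr1:45527043-45528078 was 1036 bp wide and 89.8% masked, with a median copy number of 1.

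Gene lists were compared by the share of their distal sites that were repeat sites, beside 1.89% over all genes. A site was counted for the gene of its nearest protein-coding TSS, at whatever distance. These lists were chosen with earlier results known, and the sites of 1 gene are not independent. The share was 3.66% for collagens (21 of 574 sites, 95% Wilson interval 2.41 to 5.53%), with 12 of the 21 at the pair above and 4 at Col12a1. Without Col3a1 and Col5a2, a choice made after seeing the data, it was 1.76% (9 of 511, 0.929 to 3.31%), so that the value of the list rested on this locus. The share was 3.05% for integrins (9 of 295, 1.61 to 5.70%), the receptors of cells for matrix, with 4 at Itgav, 3 at Itgb1 and 1 at Itga5. For matrix genes it was 1.91% (7 of 367), with 2 each nearest to Lox, which cross-links collagen, and Thbs1 and 1 nearest to Dcn. Those of Lox lay 25.4 and 42.6 kb from its TSS, those of Thbs1 164 and 326 kb and that of Dcn 131 kb. For contractile genes the share was 2.19% (5 of 228), with 2 in introns of Vcl, the vinculin gene, and 1 each nearest to Actn1 and Cald1. All these intervals, other than that of the whole collagen list, include the value over all genes.

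For mesenchymal transcription factors the share was 0.813% (5 of 615, 0.348 to 1.89%), although these genes had 20.8 low-repeat sites each on average, against 3.64 over all genes. Tbx15, Tcf21 and Tead1 had 1 repeat site each, at 215, 66.9 and 11.8 kb from the TSS. Zinc finger genes of the Zfp type, many of which encode repressors of transposable elements, had 17 among 1292 distal sites (1.32%). Of these, 2 were nearest to Zfp462, at 15.3 and 508 kb from its TSS, and 1 each to Zfp106 (4.12 kb) and Zfp217 (105 kb). None of the 30 distal sites of Hox genes was a repeat site, which by the limit of 3 sites allows a share of up to 10%. Genes with a ribosomal protein symbol, Rpl or Rps and a number, had 10 of 354 (2.82%), with 2 each nearest to Rps27, Rps29 and Rpl36a-ps1. The list was drawn by symbol and takes in Rpl36a-ps1, which is named as a pseudogene. Keratins had 1 repeat site of 88, nearest to Krt39. The repeat sites of Rps29 lay 471 and 635 kb from its TSS, those of Rpl36a-ps1 8.62 and 404 kb, and those of Rps27 in introns of Nup210l.

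Receptor genes of the nose, which lie in large clusters, had few distal sites but a higher share in repeats than all genes together. The masking around these genes and a placed share for them were not computed. Over all chromosomes, 13.1% of placed distal sites were repeat sites. For olfactory receptors, 13 of 176 distal sites (7.39%, 4.37 to 12.2%) were repeat sites, at 11 of 1134 genes. Olfr874 had 3 of its 5, of which the pair at chr9:37734832-37735386 and chr9:37735686-37736056 were fully masked, while Olfr1318 and Olfr1432 had 1 each as their only distal site. Vomeronasal receptors had 3 of 44 (6.82%, 2.35 to 18.2%), at Vmn1r4, Vmn1r42 and Vmn1r44. In absolute terms these genes had 0.0115 and 0.00915 repeat sites each, against 0.101 over all protein-coding genes.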

How the data were processed

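The deposited table gave base positions of H3K4me1 sites, without any signal, as the authors made it: reads trimmed with Trim Galore, aligned to mm10 with BWA, filtered with samtools, replicates merged with Picard and broad peaks called with MACS2 in a single set over all samples. Versions and thresholds are not given in the sources used here, and no count, signal or depth per library was in the table. Coordinates are printed counted from 1.

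Masked bases were the lower-case bases of the RefSeq GRCm38.p6 sequence, and TSSs and genes came from GENCODE M21. The M25 release was not used here. Sites on chromosomes 1 to 19 and X were used, and 36 on scaffolds were left out. Words of 75 and 24 bases were counted on both strands over chromosomes and scaffolds. Placements were 1000 for numbers and 100 for properties, and are given as mean and range with no p. The classes were compared by a two-sided exact sign test over the 20 chromosomes, each with at least 20 sites of both classes, with Benjamini-Hochberg adjustment over 7 measures (that of single-copy words is not quoted), since sites are not replicates. Location was read at the centre of a site. Genes were assigned by the nearest protein-coding TSS. Named genes were the 10 with the most repeat sites, those of the 5 widest and up to 3 per list. Members and lists were chosen with earlier results of these data known. Computation used Python 3.11.15, numpy 2.4.6, scipy 1.17.1, numba 0.67.0 and matplotlib 3.10.9, and word counts, distances and gaps were tested on simulated data. Alternatives concerned the share of masked bases, TSS distance and set, width, merging, placement and the windows measured.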

Additional observations from a re-analysis of the deposited data

How the results depend on the processing

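Of 62 alternatives to 10 results, 8 were chosen after seeing the data. None turned a direction, and 3 ended a call. Of the values given without a test, 12 moved by more than their counting interval. The number of repeat sites over random placement, 0.124, became 0.166 at 70% and 0.0875 at 90% masked bases, 0.134 with a TSS distance of 1 kb, 0.0460 for sites of at least 500 bp, 0.119 with sites within 1 kb merged, 0.142 with distal sites placed in distal sequence and 0.237 among windows with at least 80% single-copy 75-base words. The share of distal sites, 1.89%, became 3.07% at 70%, 1.06% at 90%, 0.639% for sites of at least 500 bp and 1.61% after merging. The difference in the share with another site within 1 kb, -4.35 percentage points, was, by the exact sign test, -1.82 at 70% masked bases (p = 0.82), -2.56 against low-repeat sites under 10% (p = 0.26) and, added after seeing the data, -0.65 among sites under 500 bp (p = 1). The share for collagen genes, 3.66%, was 1.76% without Col3a1 and Col5a2. The calls for width, intergenic share, distance, GC content and AP-1 words kept their direction and their side of the threshold under each alternative run for them, but the size did not always hold. The p values of alternatives were not adjusted, and tests of sites of at least 500 bp rested on 10 chromosomes. Some held calls were near the threshold. By the exact sign test p was 0.041 for GC content at 70% and against low-repeat sites under 10%. It was also 0.041 for distance with protein-coding TSSs. In 11 cases in which a call held, the difference moved by over 1.5 times. For width, -224 bp became -23 bp among sites under 500 bp, -125 bp with the masking of the central 200 bp, -145 bp against low-repeat sites under 10% and -358 bp after merging. For distance, 4110 bp became 2509 bp at 70% masked bases and 11960 bp with protein-coding TSSs. For GC content, 0.73 points became 0.34 at 70%, 0.48 against low-repeat sites under 10% and 1.41 in the central 200 bp. For neighbouring sites, -4.35 points became -8.00 within 3 kb and -10.4 for sites of at least 500 bp. The cause of these shifts was not tested.

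No paired analysis was possible because replicates are not told apart in the table, and a library was left out in no alternative. The depth of the libraries, the effect of the reads that were filtered out and another masking of the genome were not analysed here. Repeat families were not analysed here beyond the few annotated elements.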
